A study of Mus musculus with 6 samples.

Results

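The NR4A orphan nuclear receptors are a family of 3 genes, Nr4a1, Nr4a2 and Nr4a3, and they are described here over all 6 arrays of a study of BRAF activation in mouse melanocytes. The members were taken as every probe set that the platform annotation pairs with one of these symbols. This gave 10 probe sets for 3 of the 18193 genes measured: 1 for Nr4a1, 6 for Nr4a2 and 3 for Nr4a3. The family was chosen with its values on these arrays known, so the values are a description and no difference was tested. The cells were melan-a, a line derived from melanoblasts of C57BL/6 embryos, in which delta-BRAF-ER, an activated BRAF that tamoxifen switches on, had been introduced. Gene expression was measured in BRAF-activated cells that also carried ZEB2, SNAIL2, TWIST1 or ZEB1, in BRAF-activated cells without an added factor (BRAF-on), and in cells whose BRAF was not activated (BRAF-off), with 1 array per group. All of these groups carry the BRAF construct. Neither an array of tamoxifen without the construct nor one of a factor without BRAF activation was analysed here, and the drug and the kinase cannot be told apart.

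NR4A proteins are transcription factors of the nuclear receptor class that act without a known physiological ligand, so that their amount is set largely by transcription. They are early response genes, switched on quickly by cAMP, calcium and growth factor signals, and they bind DNA at an element called NBRE. In melanocytes they are known as targets of the melanocortin receptor MC1R, which raises cAMP and thereby activates the factor CREB, and they have been linked to repair of ultraviolet damage in these cells.

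The arrays have 1 colour, and the values are the authors' signal intensities, unlogged, with every array brought to a common mean. Between 10611 (BRAF-off) and 11269 (ZEB1) genes per array lay at or above a floor of 63.7 signal units, the median of all values. Where 1 of the arrays in a ratio lay below this floor, the floor took its place and the size is a bound, marked as such. A gene counted as higher or lower from 2-fold upwards. No group has replicates, so no spread can be given, and the number of arrays limits the precision. The 24 spiked poly-A control probe sets had a median of 2.55-fold their BRAF-on level on the SNAIL2 array and of 0.880-fold to 1.42-fold on the others. What they contribute to the results was not tested. The probe sets used for the 4 added factors were not 2-fold higher on the array labelled with the factor: Zeb2 was at 1132 with ZEB2 against 806 in BRAF-on, Snai2 at 3142 with SNAIL2 against 4175 in BRAF-on, Twist1 at 278 with TWIST1 against 338 in BRAF-on and Zeb1 at 109 with ZEB1 against 134 in BRAF-on. Only the brightest probe set of each of these genes was read, so the values do not show whether an added factor was expressed. Arrays are therefore named by their labels.

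The sequences before the 3 transcript starts are shown because CREB acts on such genes through short elements near the start. Each is the 250 bases upstream of the start in RefSeq (GRCm38.p6), 5′ to 3′ on the gene's strand. Capitals mark each TGACG or its reverse complement CGTCA, the short core of the cAMP response element. The Nr4a1 stretch lies at chr15:101266596-101266845 on the plus strand, that of Nr4a2 at chr2:57124004-57124253 on the minus strand and that of Nr4a3 at chr4:48045055-48045304 on the plus strand.
Nr4a1: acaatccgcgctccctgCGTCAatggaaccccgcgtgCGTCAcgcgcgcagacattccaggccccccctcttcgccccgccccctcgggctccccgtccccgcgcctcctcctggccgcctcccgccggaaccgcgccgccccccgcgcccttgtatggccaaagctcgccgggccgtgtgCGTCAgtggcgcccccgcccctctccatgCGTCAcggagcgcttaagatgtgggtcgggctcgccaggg
Nr4a2: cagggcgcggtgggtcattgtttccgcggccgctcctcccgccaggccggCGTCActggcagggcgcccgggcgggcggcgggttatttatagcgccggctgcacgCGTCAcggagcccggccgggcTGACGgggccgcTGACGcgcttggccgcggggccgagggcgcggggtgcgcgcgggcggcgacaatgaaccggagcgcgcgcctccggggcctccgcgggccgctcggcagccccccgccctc
Nr4a3: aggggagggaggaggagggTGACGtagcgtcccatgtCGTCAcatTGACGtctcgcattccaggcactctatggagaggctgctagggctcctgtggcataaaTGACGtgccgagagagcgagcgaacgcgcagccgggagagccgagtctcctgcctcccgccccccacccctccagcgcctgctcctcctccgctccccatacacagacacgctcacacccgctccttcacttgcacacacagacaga
RefSeq places the whole genes at chr15:101253902-101274795 (Nr4a1), chr2:57106830-57124003 (Nr4a2) and chr4:48045078-48086447 (Nr4a3). For Nr4a1 and Nr4a3 the gene begins upstream of the start used here, so their stretches lie partly or wholly inside the annotated gene.

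Each of the 3 stretches held 4 short cores. Of 32851 promoter stretches of the same length in RefSeq, 17.8% held at least 1 and 0.137% (45) held at least 4, counting both strands and allowing overlap. The full palindrome TGACGTCA, present in 1.55% of all stretches, was in none of the 3. The stretches were also searched for AAAGGTCA, the NBRE to which the NR4A proteins bind (1.34% of all), and for CACCTG (17.2%), the form of E-box that SNAIL and ZEB factors bind. The forms CACGTG (6.02%) and CATGTG (12.3%), which MITF binds, were searched too. None of these letters was found in the 3 stretches on either strand, which says nothing about sites outside them. The 3 stretches were 74.4% (Nr4a1), 80.0% (Nr4a2) and 63.6% (Nr4a3) G or C, against a median of 52.4% over all stretches. The shares above were not matched for this content, and the cut of 4 cores equals the count in each member. Nothing is therefore read from the 0.137%.

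**Figure D1:**
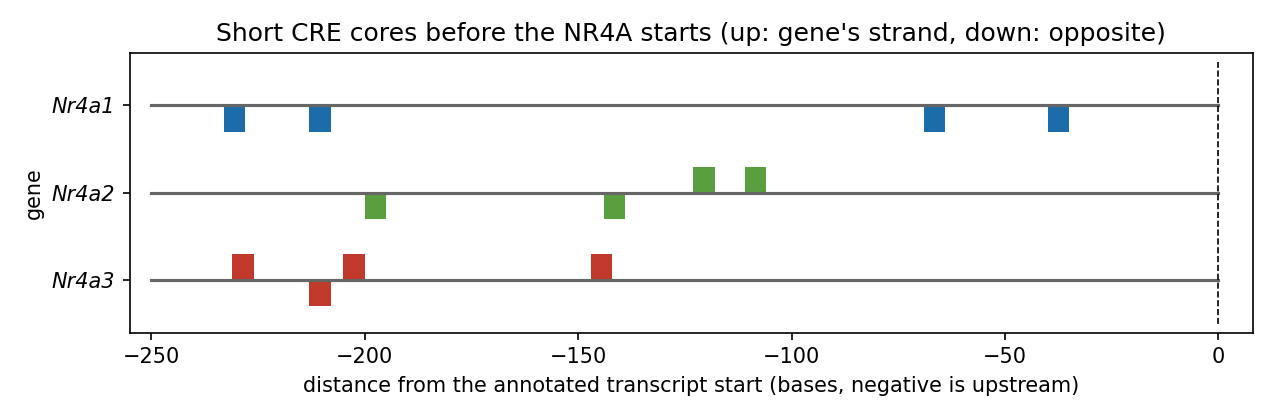
Positions of TGACG (bars up) and its reverse complement (bars down) in the 250 bases before the annotated start of each NR4A gene, with distance from the start in bases on the x axis. Each gene has 4, between 233 and 36 bases before the start in Nr4a1, between 200 and 107 in Nr4a2 and between 231 and 143 in Nr4a3.

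Nr4a3 had the widest range of the family. Its brightest probe set, 1438796_at, was at a signal of 2077 with ZEB2, 3984 with SNAIL2, 42.3 with TWIST1 and 271 with ZEB1, against 604 in BRAF-on and 1083 in BRAF-off. The SNAIL2 and ZEB2 arrays were above both arrays without an added factor, and the TWIST1 and ZEB1 arrays were below both. The SNAIL2 array was at least 62.5-fold above the TWIST1 array, which was under the floor. On the SNAIL2 array this probe set was brighter than 95.7% of all probe sets, and on the TWIST1 array brighter than 44.8%. With 1 array per group, no neighbours in this order can be said to differ beyond their spread.

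Set against BRAF-on, Nr4a3 was 6.60-fold higher with SNAIL2 (log2 ratio 2.72), the 9th highest of 11416 genes, and 3.44-fold higher with ZEB2 (1.78), the 11th highest of 11322. It was at least 9.47-fold lower with TWIST1 (-3.24) and 2.23-fold lower with ZEB1 (-1.16). Only the first of these low values rests on an array under the floor. BRAF-on itself was 1.79-fold lower than BRAF-off (-0.84), the 87th lowest of 11200 genes, short of 2-fold. The other Nr4a3 probe sets do not bear on this pattern, since both were under the floor on all 6 arrays, at 1.06 to 26.1 (1421079_at) and 6.39 to 17.8 (1421080_at). The Nr4a3 values therefore rest on 1 probe set. None of the 3 is annotated through a RefSeq transcript of the gene.

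Most markers of the cell type moved with Nr4a3. Of 14 melanocyte markers, 13 reached the floor on each array but that labelled TWIST1, where 3 did, and 11, Dct, Tyrp1 and Tyr among them, were under it. The 3 that reached it with TWIST1 were Pax3 at 2589 (2546 in BRAF-on), Sox10 at 1941 (2730) and Mitf at 245 (5036). Pax3 and Sox10 were thus within 2-fold of BRAF-on there. Their summed signal was 129043 with ZEB2, 160047 with SNAIL2, 5103 with TWIST1 and 30055 with ZEB1, against 72613 in BRAF-on and 100181 in BRAF-off. The order of these sums was that of Nr4a3. In these bulk samples, fewer cells of a type and less RNA per cell cannot be told apart. The 10 fibroblast markers, of which 9 reached the floor with TWIST1 and 8 with ZEB1, against 7 in BRAF-on and 6 in BRAF-off, summed to 22321 with TWIST1 and 13015 with ZEB1, against 8881 in BRAF-on and 10241 in BRAF-off. With TWIST1, Thy1 (96.6) and Pdgfra (105) lay near the floor. Against BRAF-on, 5 of 9 measured fibroblast markers were higher with TWIST1 (2.03% of all genes) and none lower (2.02%). With ZEB1, 3 of 8 were higher (4.49%) and none lower (3.93%). With SNAIL2, 1 of 7 was lower (6.42%) and none higher (5.61%), and with ZEB2 none of 7 passed (2.34% either way). The part of the fibroblast markers in the NR4A values was not tested. Against BRAF-on, 7 of 13 measured melanocyte markers were higher with ZEB2 (1.76% of all genes) and 10 with SNAIL2 (5.61%), and 11 were lower with TWIST1 (2.02%) and 10 with ZEB1 (3.93%). Keratinocyte markers (1 to 3 of 9 at the floor) summed to 445 to 598 signal units over the 6 arrays, endothelial markers (1 to 4 of 8) to 376 to 628, and macrophage and leukocyte markers (3 of 10) to 1244 with ZEB1 and 630 to 763 elsewhere.

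Nr4a1 followed nearly the same order of arrays within a much smaller range. Its single probe set, 1416505_at, was at a signal of 2138 with ZEB2, 2197 with SNAIL2, 650 with TWIST1 and 1185 with ZEB1, against 1738 in BRAF-on and 1493 in BRAF-off. All 6 arrays were well above the floor, and the highest was 3.38-fold the lowest. The TWIST1 array stood lowest, and the 2 arrays labelled SNAIL2 and ZEB2 highest. The orders of Nr4a1 and Nr4a3 differ in 1 place, since BRAF-on was above BRAF-off for Nr4a1 and below it for Nr4a3. Against BRAF-on, Nr4a1 was 2.67-fold lower with TWIST1 (log2 ratio -1.42). Its log2 ratios were -0.55 with ZEB1, 0.30 with ZEB2 and 0.34 with SNAIL2, and 0.22 for BRAF-on against BRAF-off, all under 2-fold.

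Nr4a2 was dim, and its probe sets did not share one order. The brightest, 1455034_at, was at a signal of 185 with ZEB2, 140 with SNAIL2, 62.6 with TWIST1 and 132 with ZEB1, against 186 in BRAF-on and 117 in BRAF-off. The TWIST1 array was the lowest and lay just under the floor, and BRAF-on and the ZEB2 array were about level at the top. The log2 ratio for BRAF-on against BRAF-off was 0.67, under 2-fold. Against BRAF-on, Nr4a2 was at least 2.91-fold lower with TWIST1, a size that depends on the floor because 1 array is below it. Its log2 ratios to BRAF-on were -0.0029 with ZEB2, -0.41 with SNAIL2 and -0.49 with ZEB1, all under 2-fold.

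The 2 Nr4a2 probe sets annotated through a RefSeq transcript ran differently from each other. 1450750_a_at was at 147 with ZEB2, 115 with SNAIL2, 63.3 with TWIST1 and 151 with ZEB1, against 101 in BRAF-on and 118 in BRAF-off. 1450749_a_at was at 72.3 with ZEB2, 101 with SNAIL2, 82.0 with TWIST1 and 112 with ZEB1, against 112 in BRAF-on and 75.8 in BRAF-off. The first was lowest with TWIST1 and highest with ZEB1, and the second was lowest with ZEB2 and highest in BRAF-on. The other 3 Nr4a2 probe sets reached the floor on 1 (1433422_at, at 7.92 to 67.9), 3 (1433423_at, at 25.3 to 109) and 4 (1447863_s_at, at 43.3 to 106) of the 6 arrays. Of the 10 probe sets of the family, 2 reached it on all arrays, 6 on some and 2 on none.

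**Figure D2:**
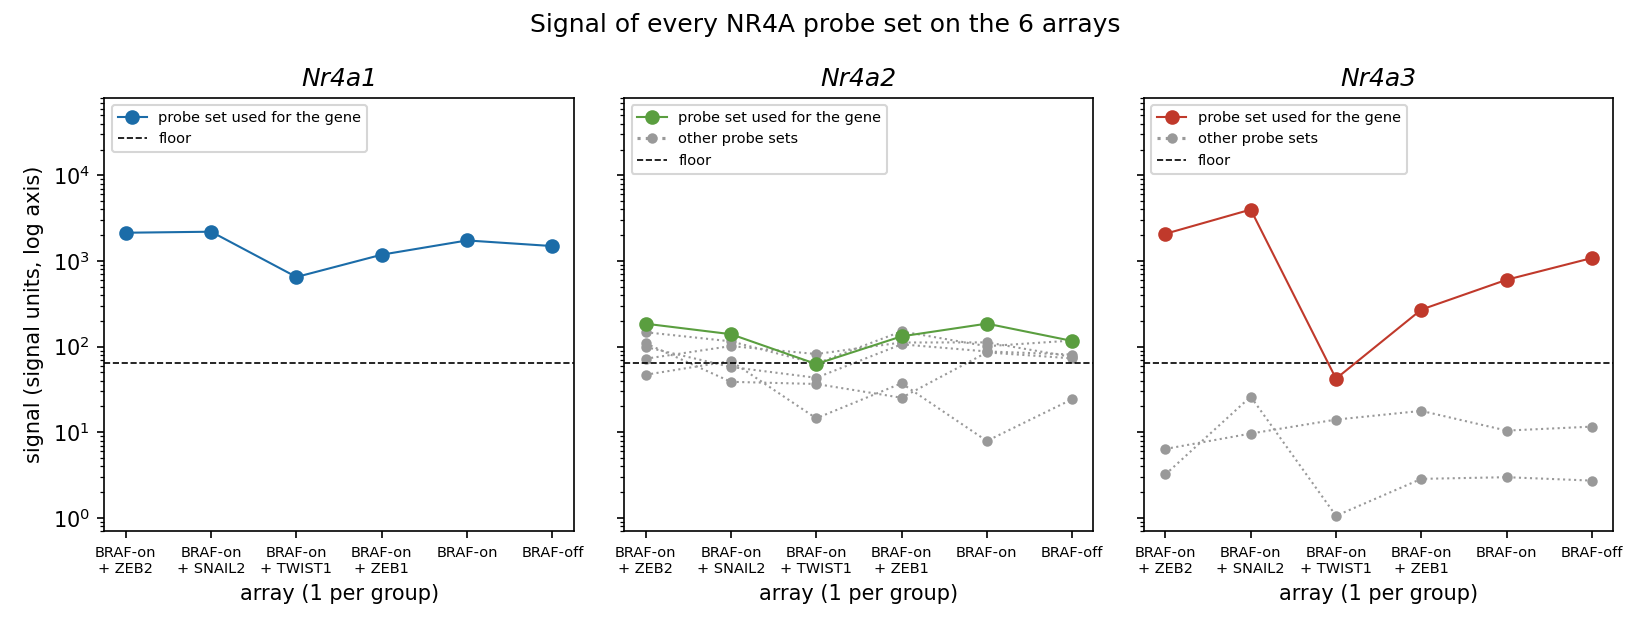
Signal in signal units on a log axis for every NR4A probe set on the 6 arrays. Coloured points are the probe set used for the gene, grey points the gene's other probe sets, the dashed line is the floor, and lines only join points of 1 probe set. Nr4a3 runs between 42.3 and 3984 on 1 probe set while its other probe sets stay under the floor, and Nr4a1 stays between 650 and 2197.

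With TWIST1, the 3 members all lay 2-fold or more below BRAF-on, as did 2.02% of all 11334 genes compared, while 2.03% lay that far above and 4.05% differed either way. The place of Nr4a2 among them depends on the setting: its log2 ratio was -0.48 with a higher floor (60th percentile), -0.98 with the floor added as a pseudocount and -0.56 by the median of its probe sets, all under 2-fold. The array labelled TWIST1 was the lowest of the 6 for each of the 3 probe sets used. With ZEB1, 1 of the 3 members, Nr4a3, was 2-fold or more below BRAF-on, where 3.93% of all genes were lower, 4.49% higher and 8.42% either. With SNAIL2, 1 of the 3 was higher, again Nr4a3, where 5.61% of all genes were higher, 6.42% lower and 12.0% either. With ZEB2, 1 of the 3 was higher, Nr4a3 once more, where 1.76% of all genes were higher, 0.583% lower and 2.34% either. None of the 3 differed by 2-fold between BRAF-on and BRAF-off, where 1.04% of all genes were higher, 0.384% lower and 1.42% either. With the arrays centred on their medians, Nr4a3 was at -1.04 there and 1 of the 3 counted. The members were chosen on these contrasts, so nothing is read from these counts against the shares. These 4 comparisons with BRAF-on share its single array, so their directions are not independent of each other.

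Set against BRAF-off, 1 of the 3 members was higher with SNAIL2, none differed with ZEB2, 2 were lower with TWIST1 and 1 was lower with ZEB1. With SNAIL2, Nr4a3 was 3.68-fold higher, the 17th highest of 11149 genes, of which 4.0% were higher, 5.31% lower and 9.31% either. With ZEB2 it was 1.92-fold above BRAF-off, under the size that counts, where 1.02% of all genes were higher, 0.325% lower and 1.34% either. The directions of Nr4a3 were those seen against BRAF-on. With TWIST1 it was at least 17.0-fold lower, where 3.11% of all genes were higher, 2.61% lower and 5.71% either. With ZEB1 it was lower by more than 2-fold, the 62nd lowest of 11508 genes, of which 7.06% were higher, 5.20% lower and 12.3% either. These comparisons share the BRAF-off array in the same way. Nr4a1 was 2.30-fold lower with TWIST1 than in BRAF-off and within 2-fold with the other factors, at log2 ratios of 0.52 with ZEB2, 0.56 with SNAIL2 and -0.33 with ZEB1. Nr4a2 was within 2-fold of BRAF-off throughout, at 0.67 with ZEB2 and 0.26 with SNAIL2, though its value with TWIST1 (-0.87) is a bound. Its log2 ratio with ZEB1, 0.18, turned to -0.06 when arrays were centred on their medians, and its ratio to BRAF-on with ZEB2, -0.0029, turned to 0.05. By the median of its probe sets, Nr4a2 was at 0.14 with ZEB2 and 0.21 with ZEB1 against BRAF-on, where the probe set used gave -0.0029 and -0.49. Such centring moved all genes by up to 0.23 on the log2 scale.

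**Figure D3:**
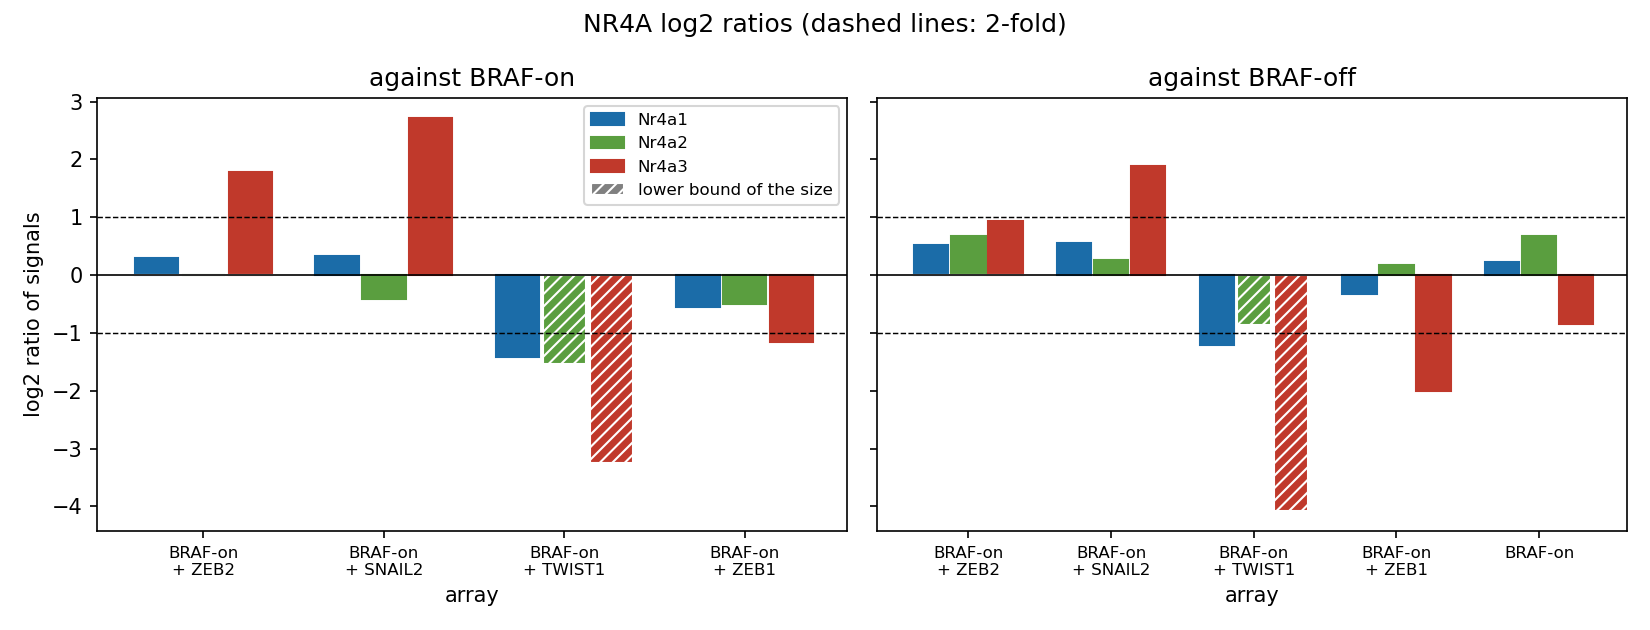
Log2 ratios of the 3 NR4A genes against BRAF-on (left) and BRAF-off (right), 1 bar per gene and array, with dashed lines at 2-fold and hatched bars where 1 array was under the floor, so that the bar is a lower bound of the size. Nr4a3 stands at 2.72 with SNAIL2 and -3.24 with TWIST1 against BRAF-on. The 3 genes lie past -1 together only with TWIST1 against BRAF-on, where Nr4a2 and Nr4a3 are bounds. Against BRAF-off, Nr4a2 with TWIST1 is at -0.87, also a bound.

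Over the 6 arrays the floored log2 signals of Nr4a1 and Nr4a3 had a Pearson r of 0.956, those of Nr4a1 and Nr4a2 one of 0.887 and those of Nr4a2 and Nr4a3 one of 0.718. Without the TWIST1 array these were 0.899, 0.530 and 0.114. Both values of Nr4a2 are thus much lower without that array. All values come from the same 6 arrays and are given as descriptions.

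Among 3874 genes that varied by at least 2-fold and reached the floor on at least 3 arrays, the pattern most like that of Nr4a3 was that of Tspan10, a tetraspanin gene. It was at a signal of 2041 with ZEB2, 3817 with SNAIL2, 28.4 with TWIST1 and 234 with ZEB1, against 614 in BRAF-on and 1046 in BRAF-off, an r of 0.999. Next came Enho, which encodes a secreted peptide, Mlph, a melanosome transport gene, Gpr143, a receptor of melanosomes, and Oca2, a melanosome transporter, each with an r of 0.998 or 0.999. Without the TWIST1 array the 5 values were between 0.995 and 0.999. Mc1r ranked 47th (0.984) and Mitf, the regulator of melanocyte differentiation, 62nd (0.978). Of the family itself, Nr4a1 ranked 172nd and Nr4a2 975th.

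For Nr4a1 the most alike gene was Paqr4, a membrane protein gene, with an r of 0.996, followed by Ahcyl2 (0.993), Fyb, an adaptor protein gene (0.993), E330034G19Rik (0.986) and Cited1, a transcriptional coactivator gene (0.979). Mitf ranked 7th (0.978) and Mc1r 8th (0.976), while Nr4a3 ranked 50th and Nr4a2 220th. Without the TWIST1 array, Mitf stood at 0.918 and Mc1r at 0.911. For Nr4a2 the values were lower, with Mitf 51st (0.805) and Mc1r 64th (0.792), and at 0.227 and 0.169 without the TWIST1 array. Nr4a1 ranked 13th and Nr4a3 141st. B4galnt4, a glycosyltransferase gene, led with 0.943, then came Shc4, Sphk1, Abcc5 and Fez1 with 0.905 to 0.919, and without the TWIST1 array the 5 lay between 0.532 and 0.832.

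**Figure D4:**
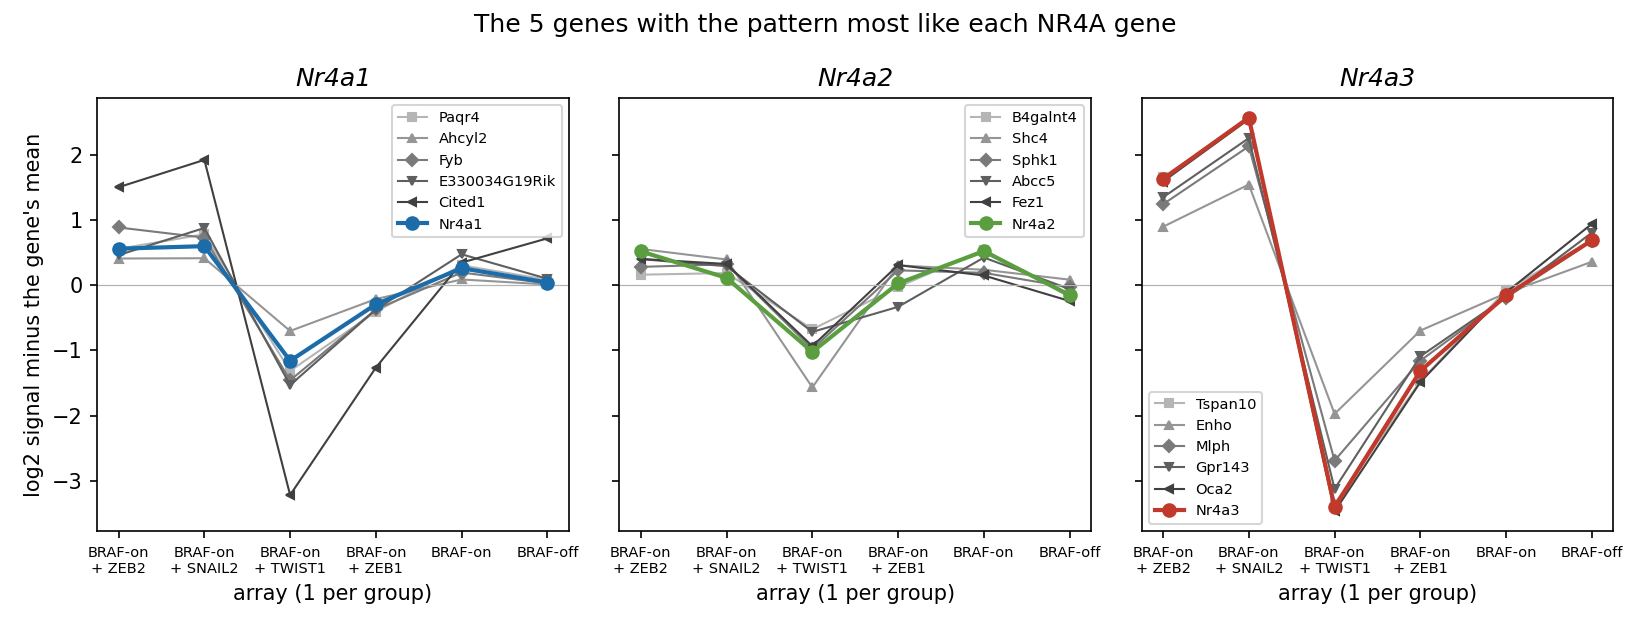
Log2 signal minus the gene's mean over the 6 arrays for each NR4A gene (coloured) and the 5 genes with the highest Pearson r to it (grey), with values under the floor raised to it. Lines are not scaled to a common range. The genes of the Nr4a3 panel stand in the same order of arrays (r of 0.998 to 0.999) but differ in range. Enho runs from a signal of 309 to 3530, and Nr4a3 from 42.3 to 3984. Those of the Nr4a2 panel are all lowest on the TWIST1 array and differ in order on the others (r of 0.905 to 0.943).

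Mc1r, the receptor upstream of the family in pigment cells, was at a signal of 3549 with ZEB2, 5806 with SNAIL2, 57.0 with TWIST1 and 456 with ZEB1, against 1547 in BRAF-on and 2400 in BRAF-off. Its arrays stood in the order of Nr4a3, and Mc1r, like Mitf, is also one of the melanocyte markers above. The adenylyl cyclase gene Adcy2, which makes cAMP, was at 544 with ZEB2 and 826 with SNAIL2, 66.3 with TWIST1 and 43.0 with ZEB1, against 188 in BRAF-on and 292 in BRAF-off. Of 19 measured genes of MC1R and cAMP signalling, 5 stood 2-fold or more above BRAF-on with SNAIL2 (5.61% of all genes did) and none that far below (6.42%). Their log2 ratios were 2.14 (Adcy2), 1.91 (Mc1r), 1.56 (Adcy9, another cyclase gene), 1.29 (Akap12, a scaffold of protein kinase A) and 1.23 (Pde4d, a phosphodiesterase that breaks down cAMP). With ZEB2, 2 of 19 were higher (1.76% of all genes), Adcy2 (1.53) and Mc1r (1.20), and none lower (0.583%). With TWIST1, 3 of 20 were lower (2.02% of all genes), Mc1r (-4.60, a bound), Adcy2 (-1.50) and Akap12 (-1.16). With ZEB1, 3 of 19 were lower (3.93%), Mc1r (-1.76), Adcy2 (-1.56, a bound) and Prkar2a, a regulatory subunit of protein kinase A (-1.23). None of 19 passed 2-fold between BRAF-on and BRAF-off (1.42% of all genes). The list's median log2 ratio to BRAF-on was 0.20 on the ZEB2 array, 0.60 on SNAIL2, -0.21 on TWIST1 and 0.14 on ZEB1, and the median of all genes lay between -0.0048 and 0.07 in these 4 comparisons, which holds for the lists that follow too.

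Genes that cAMP and CREB are known to switch on had mixed directions. Crem, whose inducible product feeds back on CREB, stood in another order than Nr4a3 and was at a signal of 229 with ZEB2, 147 with SNAIL2, 298 with TWIST1 and 618 with ZEB1, against 402 in BRAF-on and 265 in BRAF-off. It was highest with ZEB1 and lowest with SNAIL2, where its log2 ratio to BRAF-on was -1.45. Mitf was at 11060 with ZEB2, 14255 with SNAIL2, 245 with TWIST1 and 1410 with ZEB1, against 5036 in BRAF-on and 7191 in BRAF-off. With SNAIL2, where 5.61% of all genes were higher and 6.42% lower, 3 of 13 measured members were higher than BRAF-on (Mitf, Pde4d, and Pde10a, another phosphodiesterase gene, at 1.04 as a bound) and 2 lower (Crem, and Bdnf, a neurotrophin gene, at -1.02). With ZEB2, 1 of 12 was higher, Mitf (1.76% of all genes). With TWIST1, 1 of 13 was lower, Mitf (2.02% of all genes), and Bdnf, at a signal of 958 with TWIST1 against 479 in BRAF-on, lay above BRAF-on at the edge of 2-fold. With ZEB1, where 4.49% of all genes were higher and 3.93% lower, Mitf was lower (-1.84) and Stc1, a secreted hormone gene, higher (2.05, a bound). The median of the list was 0.07 with ZEB2, -0.18 with SNAIL2, -0.11 with TWIST1 and 0.31 with ZEB1. Of the CREB factors, coactivators and SIK kinases, 12 were measured, with medians between -0.03 and 0.27. Against BRAF-on, Crem and Crtc3, a CREB coactivator gene (1.02), were the 2 that passed 2-fold, both with SNAIL2 (12.0% of all genes).

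The early response genes of the ERK pathway, which BRAF feeds, are genes of the same timing class as the NR4A family. Between BRAF-on and BRAF-off, 4 of 27 were higher by 2-fold or more (1.04% of all genes) and none lower (0.384%). These were the phosphatase gene Dusp5 (log2 ratio 1.70), Arc (1.68), the stress factor gene Atf3 (1.35) and Fosl1, a subunit of AP-1 (1.27). The list's median log2 ratio was 0.27, where all genes had one of -0.0017, Nr4a3 stood at -0.84, Nr4a1 at 0.22 and Nr4a2 at 0.67. Dusp5 was at 236 with ZEB2, 249 with SNAIL2, 566 with TWIST1 and 1065 with ZEB1, against 644 in BRAF-on and 198 in BRAF-off. With ZEB2 (0.583% of all genes lower) and with SNAIL2 (6.42%), 2 of 27 were lower than BRAF-on, Dusp5 and Arc. With SNAIL2 this count is near the share over all genes. With TWIST1, Myc (-1.13) and Dusp4 (-1.02) were the 2 of 28 that were lower (2.02% of all genes). With ZEB1, Egr3, a zinc finger factor gene (1.78), and Ier3 were the 2 of 28 that were higher (4.49% of all genes). The list medians against BRAF-on were -0.22 with ZEB2, -0.20 with SNAIL2, -0.03 with TWIST1 and 0.30 with ZEB1. Fos, the textbook early response gene, had log2 ratios to BRAF-on between -0.20 and 0.30 over the 4 added factors.

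Calcium reaches the NR4A genes through the factors MEF2 and NFAT. Mef2c, a MEF2 factor gene, was at a signal of 1073 with ZEB2, 1000 with SNAIL2, 183 with TWIST1 and 302 with ZEB1, against 701 in BRAF-on and 837 in BRAF-off. Nfatc2, an NFAT factor gene, was at 1234 with ZEB2, 1996 with SNAIL2, 268 with TWIST1 and 505 with ZEB1, against 620 in BRAF-on and 706 in BRAF-off. Both were lowest on the TWIST1 array and next lowest on the ZEB1 array. Of 16 measured members of the list, 1 was higher with SNAIL2 (5.61% of all genes), Nfatc2 (log2 ratio 1.69). With TWIST1, 2 were lower (2.02%), Mef2c (-1.94) and Nfatc2 (-1.21), and with ZEB1 1 was (3.93%), Mef2c (-1.22). No member passed with ZEB2 (2.34% of all genes either way) or between BRAF-on and BRAF-off (1.42%), counts near these shares. Medians against BRAF-on were 0.06 with ZEB2, 0.31 with SNAIL2, -0.37 with TWIST1 and -0.05 with ZEB1.

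Partners and cofactors of the NR4A proteins had medians between 0.03 and 0.31 against BRAF-on. Of 13 measured, none passed 2-fold against BRAF-on with ZEB2 (2.34% of all genes either way), SNAIL2 (12.0%) or TWIST1 (4.05%), and 1 was lower with ZEB1 (3.93% of all genes lower), Rps6ka3, a kinase of the ERK pathway (-1.01). Rxra, which encodes a dimer partner of Nr4a1 and Nr4a2, was at a signal of 722 with ZEB2, 906 with SNAIL2, 622 with TWIST1 and 590 with ZEB1, against 602 in BRAF-on and 610 in BRAF-off. Genes reported elsewhere as NR4A responsive, in several tissues, had medians between -0.23 and 0.38. Of 17 measured, none passed with ZEB2 (2.34% of all genes either way) or SNAIL2 (12.0%). With TWIST1, 1 was higher (2.03%), Cdkn1c, a cell cycle inhibitor gene (1.52), and with ZEB1 2 were (4.49%), Cdkn1c (1.67) and Bcl2l11, a gene that promotes apoptosis (1.56).

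Nucleotide excision repair, which removes ultraviolet damage, had 21 measured members, with medians between -0.12 and 0.06, and none of them was 2-fold apart from BRAF-on with ZEB2 (2.34% of all genes) or TWIST1 (4.05%). With SNAIL2, 3 were lower (6.42% of all genes), the damage binding gene Xpa (log2 ratio -1.62), Cetn2 (-1.40) and Rpa3 (-1.26), and with ZEB1 1 was (3.93%), the DNA ligase gene Lig1 (-1.21). Xpc, which encodes the damage sensor, was at a signal of 405 with ZEB2, 556 with SNAIL2, 333 with TWIST1 and 504 with ZEB1, against 397 in BRAF-on and 310 in BRAF-off. It stayed within 2-fold of BRAF-on on each array.

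Of the 39 other nuclear receptors with a probe set, 21 to 23 were measured in each comparison with BRAF-on. Their medians lay between 0.01 and 0.19. None passed 2-fold with TWIST1 (4.05% of all genes either way) or with ZEB2 (2.34%). With SNAIL2, 2 were higher and 1 lower (5.61% and 6.42% of all genes), and with ZEB1 1 was higher (4.49%), counts near the shares over all genes. These were Ppard, a fatty acid receptor gene (1.24), and the orphan receptor gene Nr2f6, both higher with SNAIL2, Nr1h4, the bile acid receptor gene, lower with SNAIL2 (-1.26), and Vdr, the vitamin D receptor gene, higher with ZEB1 (1.69). With TWIST1 the values of the other receptors lay between -0.65 and 0.97, and those of the 3 NR4A genes between -3.24 and -1.42. Of the latter, Nr4a3 and Nr4a2 (-1.54) are bounds. The place of Nr4a2 holds for the probe set used. Its probe set 1450749_a_at was at -0.45, inside the range of the other receptors, and 1450750_a_at at -0.67, a bound. The family was chosen on this contrast, so nothing is read from the gap. None of 22 passed between BRAF-on and BRAF-off (1.42% of all genes).

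**Figure D5:**
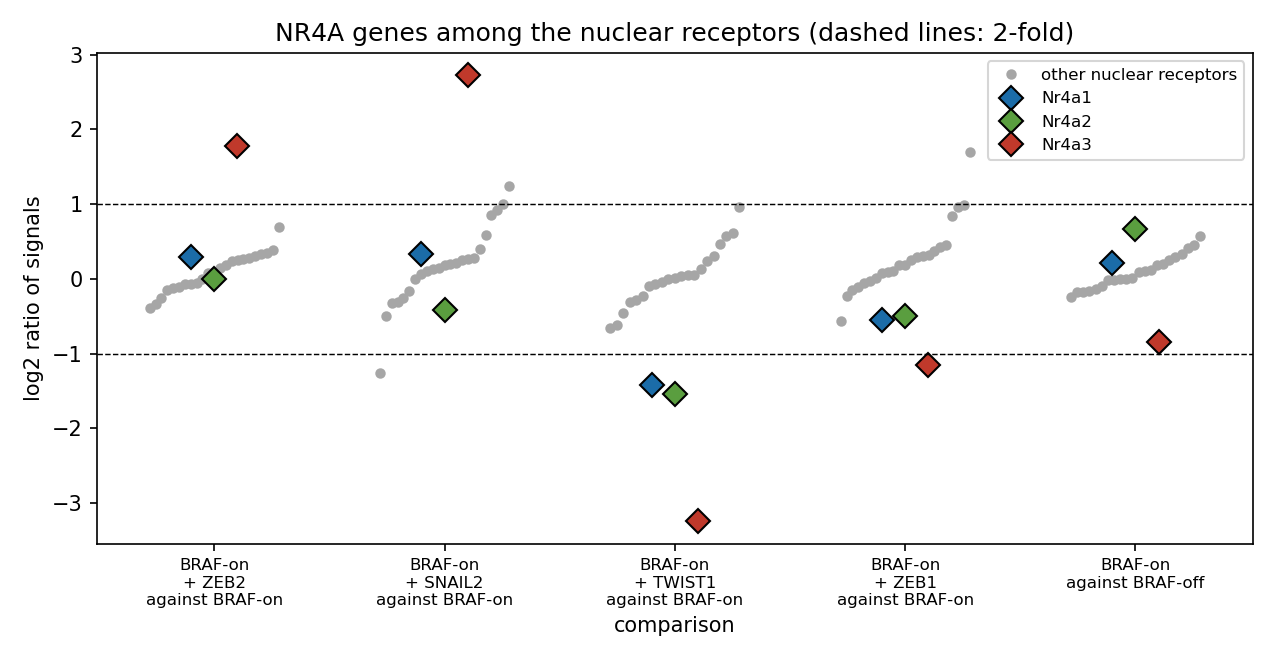
Log2 ratios of the NR4A genes (diamonds) and of the other measured nuclear receptor genes (grey points, spread sideways in rank order) in 5 comparisons, with dashed lines at 2-fold. With TWIST1 the 3 NR4A genes lie between -3.24 and -1.42 and the 21 others between -0.65 and 0.97. The values of Nr4a3 and Nr4a2 with TWIST1 are bounds, and only the probe set used for each gene is drawn.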

How the data were processed

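RNA of 6 melan-a cultures, amplified from the 3' end, was measured on 1-colour Affymetrix arrays, per the labels' protocols. The authors deposited intensity values, not logged. The submitters' processing notes name MAS5 and Affymetrix Expression Console 1.1. On every array the mean over the middle of the values, leaving out 2% at each end, was 500. No detection calls were used.

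Of 45037 probe sets without controls, 34945 had 1 gene symbol, 932 several and 9160 none, and the first kind was used. Symbols were updated through RefSeq (GRCm38.p6). Where a gene had several probe sets, the one brightest on average (log2 scale) stood for it. Probe sets near background vary more, so the floor, the median of all values, replaced anything below it. Genes with both arrays of a ratio below the floor were left out of that comparison. No difference between groups was tested. Promoter sequences come from RefSeq, which held 1 for each of the 3 members.

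The members and the 16 gene lists were chosen with earlier results of these data known. The text names every NR4A probe set and the 5 genes most alike to each member. From each list but the cell type markers it names the members at least 2-fold apart, up to 4 by size. This covers the added factors against BRAF-on, and BRAF-on against BRAF-off. The plan also had the 2 largest members named where none passed, and the same for the added factors against BRAF-off. Neither was carried out, and the marker lists were given as counts and sums. The lists held 259 different genes, each counted 1 time though some stand in more than 1 list, and 244 of them had a probe set. Fos, Xpc, Rxra, Pde4d with SNAIL2, and Bdnf with SNAIL2 and TWIST1 are outside this rule. So are the markers Dct, Tyrp1, Tyr, Pax3, Sox10, Mitf, Thy1 and Pdgfra, the added factors, and Mc1r and Mitf as ranked by likeness. All of these were chosen after their values had been seen. Computation used numpy 2.4.6 and pandas 2.3.3 in Python 3.11.15, and matplotlib 3.10.9 drew the figures. The 9 alternatives were other scalings, floors, probe sets and sizes. Leaving out the TWIST1 array for the correlations, and the alternatives for the list counts, were added after seeing the data.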

Additional observations from a re-analysis of the deposited data

How the results depend on the processing

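Of 223 log2 ratios of the members recomputed under the 9 alternatives, 212 kept their side of 2-fold, 10 fell short of the size that counted, 1 passed it and 0 of those called reversed. Of the 212, 208 also kept their sign, and the 4 that did not are all ratios of Nr4a2 under 2-fold. Centring arrays on the median put Nr4a3 at -1.04 in BRAF-on against BRAF-off, so that 1 member counted there. Taking the median of a gene's probe sets left Nr4a3 without a value, since 2 of its 3 probe sets are under the floor on all arrays. The count was then 0 with ZEB2, SNAIL2 and ZEB1 against BRAF-on and with SNAIL2 and ZEB1 against BRAF-off, and 1 with TWIST1 against either. For TWIST1 against BRAF-on, Nr4a2 was at -0.48 with a floor at the 60th percentile, -0.98 with the floor added as a pseudocount and -0.56 by the median of probe sets. With a floor at the 75th percentile, Nr4a3 was at -0.34 against BRAF-on with TWIST1, where 1 member counted, and at -0.34 with ZEB1, where 0 did. With the pseudocount, Nr4a3 with ZEB1 was at -0.997 and the count was 0. Asking for 3-fold left out Nr4a1 (-1.42) and Nr4a2 (-1.54) with TWIST1 and Nr4a3 (-1.16) with ZEB1 against BRAF-on, and Nr4a1 (-1.20) with TWIST1 against BRAF-off, so that 1, 0 and 1 members counted. The cause of these changes was not tested. The share over all genes also changes with the setting and is not set beside these counts, so nothing is read from them. Of 100 list genes called, 41 (3-fold) to 100 (no floor) stayed called and 0 reversed, and 82 of 360 list counts moved by more than 1.5 times. The count over all genes depended on the floor: BRAF-on against BRAF-off had 159 genes, and 21 with the floor at the 75th percentile or 3745 with none. No paired analysis was possible because each group has 1 array.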
